A study of Mus musculus with 6 samples.

Results

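The transcripts described here are those of the mouse mitochondrial genome, a circle of 16299 bases that encodes 13 mRNAs, 2 rRNAs and 22 tRNAs. All genes whose name begins with mt- were taken, which gave 37 of the 56884 genes in the tables, and all 37 lie on chrM. PPARγ2 carrying K382Q, a glutamine that resembles acetylated lysine, was compared with PPARγ2 carrying K382R, an arginine that resembles deacetylated lysine. RNA came from 3 K382Q and 3 K382R cultures of an immortalized line of stromal vascular cells from mouse subcutaneous white fat, at day 2 of beige adipocyte differentiation. Total aligned sequence (coverage divided by FPKM) was 5.95 to 7.50 Gb in K382Q and 6.53 to 8.15 Gb in K382R libraries.

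Both groups carried HA-tagged mouse PPARγ2 in a pMXs-Puro retroviral vector and were selected with puromycin as stable lines (the labels write PPARr2 K382Q and PPARr2 K382R). Isobutylmethylxanthine, indomethacin, dexamethasone, insulin, T3 and rosiglitazone, a PPARγ agonist, were in the medium of both. No line with wild-type PPARγ2 or an empty vector was analysed here, so each difference is one mutant against the other. Whether the 3 biological replicates came from separate infections is not given in the sources used here. The mutation and the selected line cannot be told apart, and p-values measure the spread between these cultures. Since the samples are bulk cultures, fewer cells of a type and less RNA per cell cannot be told apart either.

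The mitochondrial genome is transcribed from both strands as long precursor RNAs. In these precursors tRNAs lie between most mRNAs and rRNAs, and their excision by RNase P and ELAC2 releases the RNAs on either side. The encoded proteins are subunits of respiratory complexes I, III and IV and of ATP synthase, all other subunits of which are nuclear. Beige and brown adipocytes are rich in mitochondria, where uncoupling turns respiration into heat. Of the 37 genes, 28 are annotated on the plus strand of chrM, and the minus strand holds mt-Nd6 and 8 tRNAs. The library kit does not mark the strand of the RNA, so reads from overlapping or antisense RNAs cannot be told apart.

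The cultures had the markers of differentiating adipocytes. Summed TPM over 8 adipocyte markers was 54260.2 to 58084 in K382Q and 44733 to 46029.5 in K382R libraries, most of it from the fatty acid carrier Fabp4. At an adjusted p under 0.05, 11.1% of all genes tested were higher and 36.9% lower in K382Q (19.9% and 20.3% after median-ratio scaling). Among the 8 adipocyte markers the test called 3 higher and 2 lower in K382Q (5 and 1 after median-ratio scaling, 1 and 2 with quantile normalization). The hormone gene Adipoq was among the lower ones, at a mean TPM of 148 in K382Q and 360.0 in K382R, a log2 fold change of -1.28 ± 0.04 (SE, adjusted p = 7.63e-07 by limma), and the fatty acid transporter Cd36 stood highest at 0.43 (adjusted p = 2.24e-05 by limma). The 7 preadipocyte markers summed to 463 to 509 in K382Q and 774 to 811 in K382R libraries, nearly all of it from Ly6a. All 4 that could be tested (Ly6a, Pdgfra, Pdgfrb and Thy1) were lower in K382Q, beside 36.9% of all genes tested. The part of this difference in the values below was not tested. Leukocyte markers summed to at most 5.18 and endothelial markers to at most 2.23 TPM in any library, with Adgre1, Cd3e and Emcn at 0 in all of them. Zic1, a marker of brown precursors, was listed at 0 throughout and Hoxc9, a marker of subcutaneous white fat, had a mean TPM of 17.9 in K382Q and 25.7 in K382R.

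Nearly the whole mitochondrial transcriptome was higher in K382Q than in K382R cells. At an adjusted p under 0.05, 35 of the 37 genes were higher and 0 lower. Of the 15426 genes tested, 48.1% passed that threshold, 11.1% as higher and 36.9% as lower. The 3 K382Q libraries lay above all 3 K382R libraries for the same number, 35 genes, against 14.1% of all genes tested. Log2 fold changes of the 37 genes ran from 0.40 to 1.85 with a median of 0.70, and the median of all genes tested was -0.14. A change of more than 2-fold was reached by 13 genes, all of them tRNAs and all higher, against 1.27% of all genes that were higher and 2.61% that were lower by that much. The 2 genes that did not pass were mt-Tf and mt-Td, the tRNAs for phenylalanine and aspartic acid. The test was limma on log2(TPM + 0.5) with Benjamini-Hochberg adjustment, and all 37 genes passed the filter of a TPM of at least 0.5 in 3 libraries.

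Summed over the 37 genes, mitochondrial transcripts made up 4.96, 4.28 and 4.09% of the TPM of the K382Q libraries. In the K382R libraries they made up 2.73, 2.80 and 2.66%. The groups did not overlap, and the mean of the first was 1.63 times that of the second. By class, the ratio of summed TPM in K382Q to K382R was 1.59 for mRNAs, 1.5 for rRNAs and 2.23 for tRNAs.

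**Figure D1:**
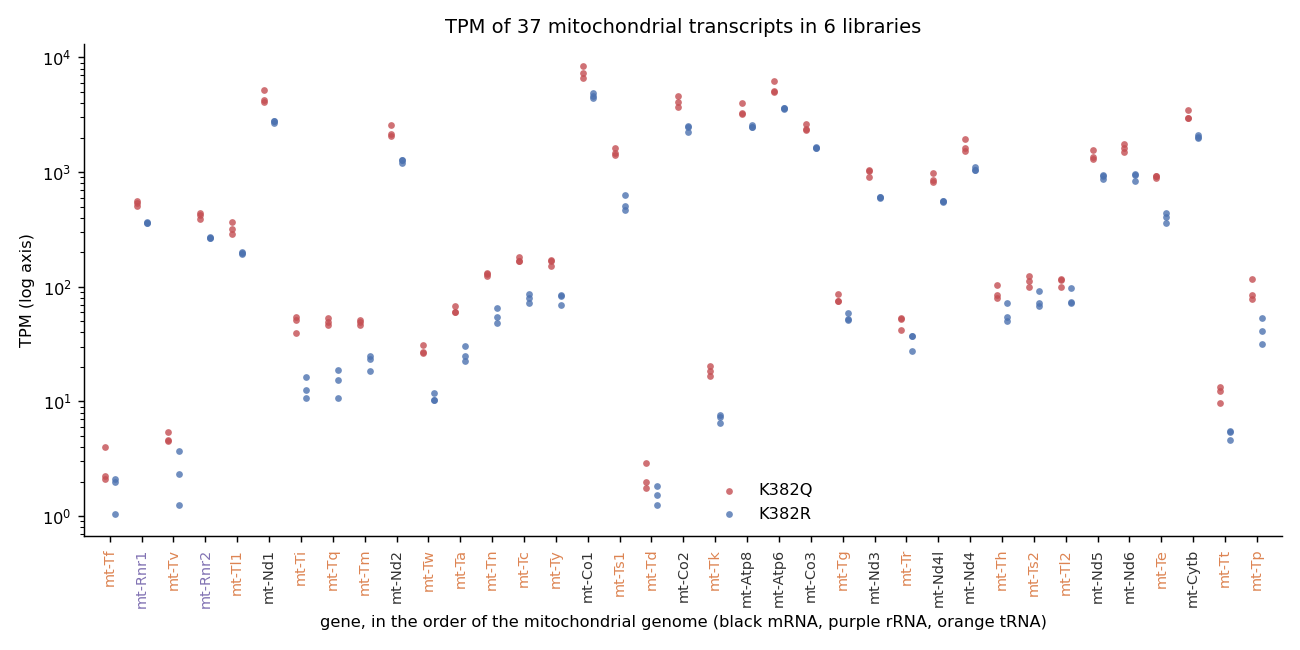
TPM of each of the 37 mitochondrial genes (log axis) in the order of the genome, with 1 point for each of the 3 K382Q (red) and 3 K382R (blue) libraries. The mRNAs lie between 547 and 8362, the tRNAs range from 1.05 to 1630.0, and the groups overlap only for mt-Tf and mt-Td.

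The 7 mRNAs of complex I, the NADH dehydrogenase that feeds electrons from NADH into the chain, were all higher in K382Q, with log2 fold changes of 0.62 to 0.86. mt-Nd1 (chrM:2751-3707, GRCm39, plus strand) had TPM values of 5237, 4266 and 4050.2 in K382Q and 2817, 2772 and 2708 in K382R libraries. mt-Nd2 (chrM:3914-4951, plus strand) stood at 2599, 2154 and 2085 against 1273, 1269 and 1208. With a log2 fold change of 0.86 ± 0.08 (SE, adjusted p = 7.93e-05 by limma), mt-Nd2 had the largest difference among the 13 mRNAs. mt-Nd3 (chrM:9459-9806, plus strand) had values of 1029, 903 and 1051 against 590.2, 603 and 602. For mt-Nd4l (chrM:9877-10173, plus strand) the values were 986, 850.2 and 823 against 547, 563 and 563. Its neighbour mt-Nd4 (chrM:10167-11544, plus strand), which overlaps it by 7 bases, gave 1952, 1607 and 1526 against 1053, 1118 and 1052. In these 3 genes the K382R libraries lay close together and every K382Q library lay above them. mt-Nd5 (chrM:11742-13565, plus strand), the longest mRNA, had 1548, 1366 and 1313 against 930.3, 941 and 879. mt-Nd6 (chrM:13552-14070) is the only mRNA on the minus strand and had 1746, 1622 and 1509 against 956, 935 and 844. Its log2 fold change of 0.83 ± 0.06 (SE, adjusted p = 3.54e-05 by limma) was above the median of the 12 plus strand mRNAs, 0.66, and below that of mt-Nd2.

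mt-Cytb (chrM:14145-15288, plus strand) encodes cytochrome b, the only mitochondrial subunit of complex III. Its TPM was 3459, 2970.1 and 2943 in K382Q and 2014, 2124 and 2002 in K382R libraries. The groups did not overlap, and the log2 fold change was 0.61 ± 0.06 (SE, adjusted p = 0.000167 by limma).

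The 3 mRNAs of complex IV, the cytochrome c oxidase that passes electrons to oxygen, were higher by 0.58 to 0.77 on the log2 scale. mt-Co1 (chrM:5328-6872, plus strand), the catalytic subunit, had the highest TPM of the 37 genes, 8362, 7354 and 6673 in K382Q and 4611, 4879 and 4399 in K382R. mt-Co2 (chrM:7013-7696, plus strand), which takes electrons from cytochrome c, had 4599, 4082 and 3682 against 2457, 2519 and 2256. mt-Co3 (chrM:8607-9390, plus strand) had 2644, 2365 and 2315 against 1621, 1647 and 1624. In all 3 genes the lowest K382Q library was above the highest K382R library.

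The 2 mRNAs of ATP synthase, mt-Atp8 (chrM:7766-7969) and mt-Atp6 (chrM:7927-8607), lie on the plus strand and share 43 bases. mt-Atp8 had TPM values of 4043, 3219.6 and 3245 in K382Q and 2466, 2455 and 2549.8 in K382R libraries. The lowest log2 fold change among the mRNAs was that of mt-Atp8, 0.48 ± 0.08 (SE, adjusted p = 0.00201 by limma). mt-Atp6, the subunit beside the rotating ring, had 6182, 5114 and 4970.5 against 3534, 3591 and 3650.2, a log2 fold change of 0.59 ± 0.08 (SE). None of the 13 mRNAs passed 2-fold, and their log2 fold changes lay within 0.48 to 0.86. Quantile normalization gave smaller ones, 0.24 to 0.74, with mt-Atp8 and mt-Atp6 lowest. With it 12 of the 13 were called higher, and mt-Atp8 was not.

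Per length, the order of mRNA levels by mean TPM over the 6 libraries was mt-Co1, mt-Atp6, mt-Nd1, mt-Co2, mt-Atp8, mt-Cytb, mt-Co3, mt-Nd2, mt-Nd4, mt-Nd6, mt-Nd5, mt-Nd3 and mt-Nd4l. Neighbours in that order were not always apart. In K382R libraries mt-Nd6 had a TPM of 912 ± 59.6 (SD, n = 3) and mt-Nd5 917 ± 33.1, and mt-Co2 had 2411 ± 138 and mt-Atp8 2490.3 ± 51.8. In K382Q libraries mt-Nd6 stood at 1626 ± 118 and mt-Nd5 at 1409 ± 123, with overlapping ranges.

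Ribosomal RNAs of the mitochondrion, which build the small and the large subunit of its ribosome, were higher in K382Q by about as much as the mRNAs. mt-Rnr1, the small subunit rRNA (chrM:70-1024, plus strand), had a TPM of 556, 536 and 503 in K382Q and 359, 368 and 358 in K382R libraries. mt-Rnr2, the large subunit rRNA (chrM:1094-2675, plus strand), had 436, 420.3 and 391 against 273, 268 and 269. The groups did not overlap for either gene, and the log2 fold changes were 0.55 ± 0.04 and 0.62 ± 0.04 (SE, adjusted p = 2.36e-05 and 1.74e-05 by limma). Summed rRNA per 1000 TPM of mitochondrial mRNA was 22.3, 25.2 and 24.7 in K382Q and 25.4, 25.0 and 25.7 in K382R libraries, and these ranges overlapped. In each library the TPM of both rRNAs was below that of every mRNA, and whether polyadenylated RNA was selected before sequencing is not given in the sources used here.

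The tRNAs spread far more widely than the mRNAs. Of 22 tRNAs, 20 were higher at an adjusted p under 0.05 and 13 of them passed 2-fold, with a median log2 fold change of 1.11. These genes are 59 to 75 bases long, and mature tRNA and uncut precursor cannot be told apart in their values. The part of each was not tested. Coverage, the mean number of reads over each base of a gene, is given beside the low tRNAs to show how much sequence lies behind a value. It ran from 2.63 in the lowest library of mt-Tf to 4527 in the highest library of mt-Ts1, so fold changes of tRNAs rest on very different amounts of sequence.

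The tRNAs between mt-Nd1 and mt-Co1 are the densest group, 8 genes with only mt-Nd2 between them, and all 8 passed 2-fold. Their log2 fold changes ran from 1.05 to 1.85. The group has tRNAs of both strands side by side, mt-Ti, mt-Tm and mt-Tw on the plus strand and mt-Tq, mt-Ta, mt-Tn, mt-Tc and mt-Ty on the minus strand. The genes that carried the largest difference and the minus strand genes are written out as in GRCm39, 5′ to 3′ along their own strand and without the added CCA end, with the anticodon in capitals. The origin of light strand replication lies between mt-Tn and mt-Tc.
mt-Ti: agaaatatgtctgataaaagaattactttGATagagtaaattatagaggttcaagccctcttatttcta
mt-Tq: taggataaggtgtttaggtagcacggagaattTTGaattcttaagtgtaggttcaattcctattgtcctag
mt-Ta: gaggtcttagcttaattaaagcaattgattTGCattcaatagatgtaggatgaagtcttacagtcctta
mt-Tn: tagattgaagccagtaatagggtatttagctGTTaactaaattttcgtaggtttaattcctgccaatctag
mt-Tc: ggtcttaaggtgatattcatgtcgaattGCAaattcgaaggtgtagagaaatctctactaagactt
mt-Ty: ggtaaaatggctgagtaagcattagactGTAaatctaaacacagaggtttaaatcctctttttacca

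mt-Ti, the isoleucine tRNA (chrM:3706-3774, plus strand), had TPM values of 54.2, 51.5 and 39.5 in K382Q and 12.5, 16.2 and 10.6 in K382R libraries. This was the largest difference of the 37 genes, a log2 fold change of 1.85 ± 0.16 (SE, adjusted p = 7.1e-05 by limma). The lowest K382Q library was above the highest K382R library, and coverage was 26.7 to 158. mt-Tq, the glutamine tRNA (chrM:3772-3842), shares 3 bases with mt-Ti on the opposite strand. It had 49.0, 53.8 and 46.3 against 15.4, 18.7 and 10.7, a log2 fold change of 1.73 ± 0.18 (SE, adjusted p = 0.00014 by limma). The levels of this overlapping pair were near each other in every library.

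The other minus strand tRNAs of the group rose by smaller and similar amounts. mt-Ta, for alanine (chrM:5018-5086), had TPM values of 60.3, 60.4 and 68.3 in K382Q and 30.4, 22.7 and 25.0 in K382R libraries. mt-Tn, for asparagine (chrM:5089-5159), had 125, 128 and 132 against 65.5, 54.2 and 48.6. mt-Tc, for cysteine (chrM:5192-5257), had 169, 181 and 168 against 86.4, 79.9 and 72.2. Within each of these genes the K382Q libraries lay together well above the K382R libraries. mt-Ty, for tyrosine (chrM:5260-5326), had 169, 171 and 151 against 84.7, 83.7 and 69.4. The log2 fold changes in this order were 1.27, 1.20, 1.12 and 1.05, with SE of 0.06 to 0.10 and adjusted p of 9.02e-06 to 4.74e-05 by limma. On the plus strand mt-Tm, for methionine (chrM:3845-3913), had a mean TPM of 48.9 ± 2.44 (SD, n = 3) in K382Q and 22.1 ± 3.43 in K382R. mt-Tw, for tryptophan (chrM:4950-5016), had 28.1 ± 2.49 against 10.8 ± 0.912, and its log2 fold change of 1.34 was next to those of mt-Ti and mt-Tq in this group.

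The 3 minus strand tRNAs outside that group are mt-Ts1, mt-Te and mt-Tp, for a serine, for glutamic acid and for proline. They are shown because mt-Ts1 and mt-Te held most of the TPM of all tRNAs and all 3 passed 2-fold.
mt-Ts1: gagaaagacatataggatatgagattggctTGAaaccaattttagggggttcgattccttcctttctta
mt-Te: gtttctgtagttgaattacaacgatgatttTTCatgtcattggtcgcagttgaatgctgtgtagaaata
mt-Tp: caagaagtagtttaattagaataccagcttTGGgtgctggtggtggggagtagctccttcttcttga

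mt-Ts1 (chrM:6870-6938), which shares 3 bases with the end of mt-Co1 on the opposite strand, had the highest TPM of the tRNAs. It stood at 1630.0, 1471 and 1407 in K382Q and 509.9, 627 and 464 in K382R libraries, a log2 fold change of 1.5 ± 0.11 (SE, adjusted p = 2.34e-05 by limma). The groups were far apart. Its coverage was 1168 to 4527, while that of mt-Td, its neighbour on the plus strand, was 3.77 to 7.14. mt-Te (chrM:14071-14139) begins at the base after mt-Nd6 and had 928, 919.8 and 886 against 405, 438 and 360.4. Its log2 fold change of 1.19 ± 0.07 (SE, adjusted p = 6.89e-06 by limma) had the lowest p of the 37 genes. In mammals the mRNAs of mt-Co1 and mt-Nd5 run on past their coding ends, over the opposite strand of mt-Ts1 and of mt-Nd6 and mt-Te. With libraries that do not mark strand, the values of mt-Ts1, mt-Te and mt-Nd6 cannot be told apart from such RNA, and its part in them was not tested. mt-Tp (chrM:15356-15422) had 118, 85.2 and 78.9 against 52.9, 41.4 and 31.8, a log2 fold change of 1.16 ± 0.20 (SE, adjusted p = 0.00207 by limma). The K382Q libraries of mt-Tp were scattered, yet none fell among the K382R libraries.

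Plus strand tRNAs outside the group between mt-Nd1 and mt-Co1 were divided. Of these 11, mt-Tk and mt-Tt passed 2-fold, 7 rose by less and 2 did not pass. The next 4 sequences are those of the highest plus strand tRNA, mt-Tl1, and of the 3 tRNAs with the smallest log2 fold changes. The binding site of a transcription terminator, MTERF1, lies within mt-Tl1.
mt-Tl1: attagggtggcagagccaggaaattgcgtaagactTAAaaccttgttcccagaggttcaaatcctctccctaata
mt-Tr: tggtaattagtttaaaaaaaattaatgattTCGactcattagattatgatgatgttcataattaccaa
mt-Tl2: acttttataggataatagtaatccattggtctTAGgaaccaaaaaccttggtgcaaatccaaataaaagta
mt-Td: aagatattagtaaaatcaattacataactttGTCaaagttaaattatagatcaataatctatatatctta

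mt-Tl1, a leucine tRNA between mt-Rnr2 and mt-Nd1 (chrM:2676-2750), had TPM values of 368, 319.6 and 286 in K382Q and 201, 198 and 195 in K382R libraries. The groups did not overlap, and its log2 fold change of 0.70 ± 0.08 (SE, adjusted p = 0.000263 by limma) was close to that of mt-Nd1, 0.70, and above that of mt-Rnr2, 0.62. mt-Tr, for arginine (chrM:9808-9875), had 51.9, 53.6 and 41.6 against 37.3, 37.0 and 27.8, a log2 fold change of 0.53 ± 0.13 (SE, adjusted p = 0.013 by limma). mt-Tl2, the other leucine tRNA (chrM:11671-11741), had 118, 114 and 100.0 against 74.3, 97.6 and 72.5. Its difference was small, 0.45 ± 0.11 on the log2 scale (SE, adjusted p = 0.0136 by limma), and the K382R library at 97.6 nearly reached the K382Q libraries. mt-Td, for aspartic acid (chrM:6942-7011), had 1.77, 1.97 and 2.92 against 1.25, 1.83 and 1.53. Its groups overlapped, and the log2 fold change of 0.40 ± 0.20 (SE, adjusted p = 0.128 by limma) did not pass the test.

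The remaining plus strand tRNAs follow the genome. mt-Tf, for phenylalanine (chrM:1-68), had a TPM of 4.01, 2.09 and 2.26 in K382Q and 2.11, 1.98 and 1.05 in K382R libraries, with a coverage of 2.63 to 9.85. Only 1 K382Q library stood clear of the others, and the log2 fold change of 0.56 ± 0.27 (SE, adjusted p = 0.13 by limma) did not pass. mt-Tv, for valine (chrM:1025-1093), had 4.6, 4.49 and 5.4 against 3.72, 2.32 and 1.26, with a coverage of 3.16 to 13.8. Its adjusted p of 0.0266 by limma rose to 0.0552, 0.0575 and 0.0769 without K382Q replicate 1, 2 or 3 and to 0.0578 without K382R replicate 2, so this call rests on those libraries. mt-Tk, for lysine (chrM:7700-7764), had a mean TPM of 18.4 ± 1.97 (SD, n = 3) against 7.16 ± 0.585, a log2 fold change of 1.30. mt-Tt, for threonine (chrM:15289-15355), had 11.7 ± 1.83 against 5.16 ± 0.492, a log2 fold change of 1.11. In contrast, the 5 plus strand tRNAs from mt-Tg to mt-Tl2, which include those for glycine (mt-Tg), histidine (mt-Th) and a serine (mt-Ts2), had log2 fold changes of 0.45 to 0.60. All 5 passed the adjusted p and 0 of them passed 2-fold. Each lost its call under some alternative, mt-Tr and mt-Tl2 for example without the filter on low values. This does not set them apart, since both rRNAs and most mRNAs lost theirs as plain coverage.

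By annotated strand, 8 of 8 minus strand tRNAs passed 2-fold, with log2 fold changes of 1.05 to 1.73 and a median of 1.19. The libraries do not mark strand, so RNA of the opposite strand cannot be told apart in any of these values. Under some alternatives mt-Ty, mt-Tp and mt-Tc fell below 2-fold, with lowest log2 fold changes of 0.92, 0.97 and 0.99. The plus strand gene mt-Tv reached 1.26 at its highest. On the plus strand 5 of 14 tRNAs passed 2-fold, with a median of 0.65, which is near the median of the plus strand mRNAs, 0.66. Position goes with strand only in part, since mt-Ti, mt-Tm and mt-Tw are plus strand genes within the group of 8 and rose with it. Summed TPM of the minus strand tRNAs was 3248, 3069.8 and 2938 in K382Q and 1250.0, 1366 and 1082 in K382R libraries. Summed TPM of the plus strand tRNAs was 1009, 934 and 848 against 555, 625 and 523. The ratio of the means was 2.5 for the minus and 1.64 for the plus strand tRNAs, and it was 2.25 for the minus strand without mt-Ts1 and mt-Te. Apart from mt-Tp, the minus strand tRNAs left in that sum all lie in the group of 8. It therefore does not separate strand from position.

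**Figure D2:**
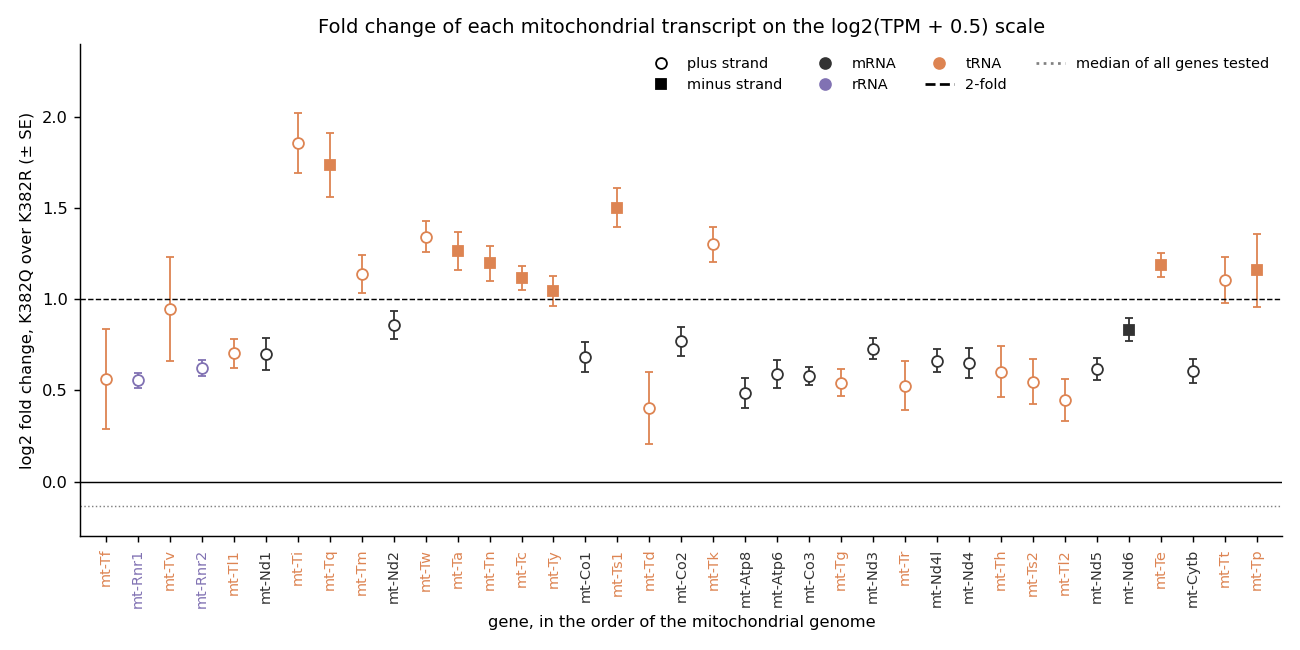
Log2 fold change of each mitochondrial gene, K382Q over K382R, in the order of the genome, with bars of 1 SE. Open circles are plus strand and filled squares minus strand genes, coloured by class, and the dashed line marks 2-fold. The 13 genes above it are all tRNAs, with every minus strand tRNA among them, and all 13 mRNAs lie between 0.48 and 0.86.

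Whether the tRNAs differed from the mRNAs was then tested for each gene, with TPM divided by the summed TPM of the 13 mitochondrial mRNAs of its library. This comparison was added after the values were seen. Relative to the mRNAs, 13 tRNAs were higher in K382Q at an adjusted p under 0.05 and 0 of the 37 genes were lower. Of all genes 1.41% were higher and 81.8% lower. The 13 were the tRNAs past 2-fold. Without K382Q replicate 3 mt-Tg was lower, by -0.24 (adjusted p = 0.0457 by limma). Without K382Q replicate 1 mt-Tp was not called (adjusted p = 0.0545 by limma), and without K382R replicate 1 mt-Tv was called higher (adjusted p = 0.00166). Since the division shifts all genes by nearly the same amount, this comparison is the same set of values read against another reference. mt-Ti was higher by 1.21 ± 0.13 (SE, adjusted p = 3.34e-06 by limma) and mt-Tq by 1.09 ± 0.16 (SE, adjusted p = 3.08e-05) beyond the mRNAs on the log2 scale. mt-Ts1 was higher by 0.84 ± 0.11, mt-Te by 0.53 ± 0.10 and mt-Ty by 0.39 ± 0.10. Neither rRNA and none of the mRNAs passed, mt-Nd6 with 0.17 ± 0.10 (SE, adjusted p = 0.124 by limma) included. Per 1000 TPM of plus strand mRNA, mt-Nd6 came to 40.9, 44.7 and 43.5 TPM in K382Q and 40.0, 38.2 and 35.9 in K382R libraries. These did not overlap, but the nearest values were 40.9 and 40.0, and this ratio was not tested.

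Per 1000 TPM of mRNA, the minus strand tRNAs came to 73.2, 81.1 and 81.2 TPM in K382Q and 50.3, 53.8 and 44.5 in K382R libraries. These did not overlap. The plus strand tRNAs came to 22.7, 24.7 and 23.4 against 22.3, 24.6 and 21.5 and overlapped, although mt-Ti, mt-Tm, mt-Tw, mt-Tk and mt-Tt among them were higher relative to the mRNAs. mt-Tl1 alone supplied a mean of 324 of the summed plus strand TPM of 930.1 in K382Q.

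**Figure D3:**
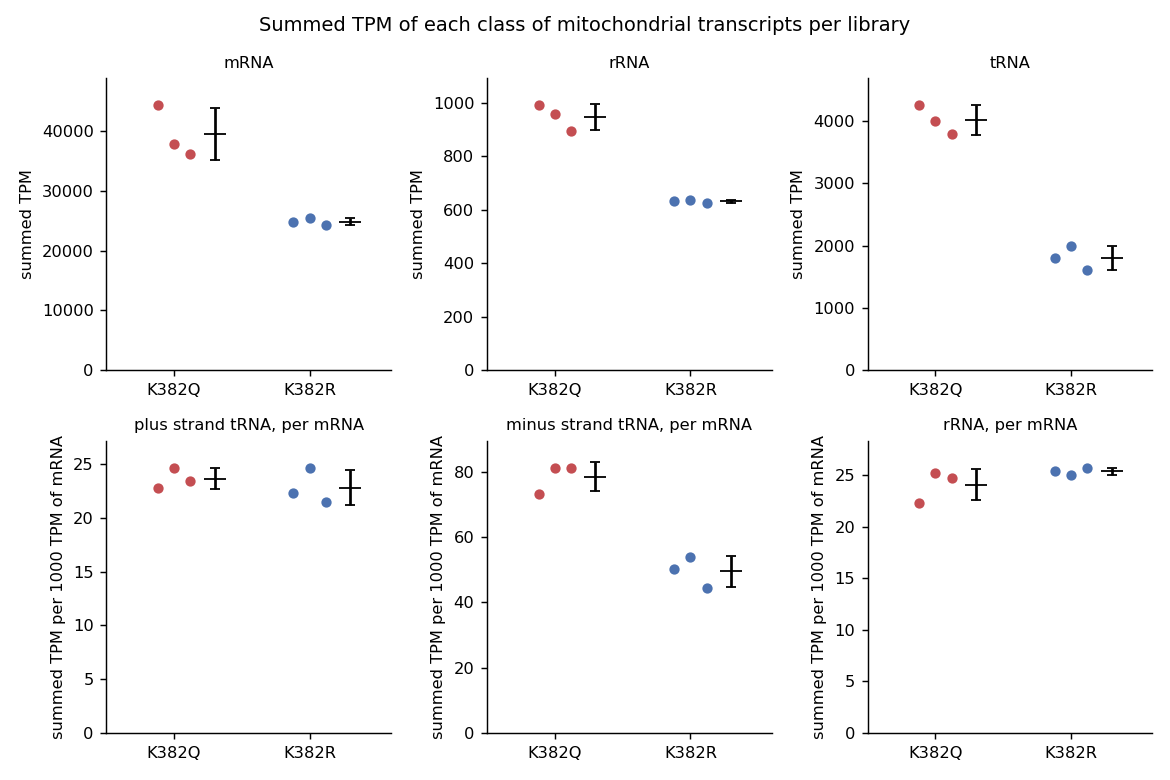
Summed TPM of mitochondrial mRNAs, rRNAs and tRNAs in each library (upper row), and plus strand tRNAs, minus strand tRNAs and rRNAs per 1000 TPM of mitochondrial mRNA (lower row). Points are libraries, and bars to their right are the mean and SD of 3. All sums are higher in K382Q, while per mRNA the minus strand tRNAs keep the groups apart and the plus strand tRNAs and rRNAs do not.

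Part of the mitochondrial genome has a nearly identical nuclear copy, which bears on how its reads were shared out. A search of GRCm39 with chrM found 12 copies of at least 150 bases and 90% identity. The longest, on the minus strand of chromosome 1 (chr1:24650616-24655269), holds chrM:6390-11042, which is 28.5% of the mitochondrial genome, with 99.936% of 4654 aligned positions the same. It differs from chrM by the substitutions A6393T in mt-Co1 and T9461C in mt-Nd3 (the chrM base, the chrM position, then the base of the copy on the same strand) and by 1 base inserted in a run of A within mt-Tr. The stretches around T9461C and around the insertion, chrM:9449-9473 and chrM:9809-9832, are printed as in chrM and in the copy, with the base that differs in capitals. Of read pairs wholly within the copied stretch, only those over such a base can show which of both places they came from.
mt-Nd3 in chrM: gaagagagtaatTaacctgtacact
the copy on chr1: gaagagagtaatCaacctgtacact
mt-Tr in chrM: ggtaattagtttaaaaaaaattaa
the copy on chr1: ggtaattagtttAaaaaaaaattaa

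Within the copy the annotation has 7 pseudogenes, which were listed at high TPM themselves. For the 5 that hold over 95% of the gene (Gm10222, Gm28438, Gm28437, Gm10925 and Gm28661, the copies of mt-Nd4l, mt-Nd3, mt-Co3, mt-Atp6 and mt-Co2), the mitochondrial gene had 0.943 to 1.05 times the TPM of the pseudogene in every library. These 5 pseudogenes had log2 fold changes of 0.57 to 0.76. Gm10925, for example, had 6490.3, 5352 and 5206 in K382Q and 3746, 3793 and 3871 in K382R libraries, beside the values of mt-Atp6 above. Reads of the 2 places cannot be told apart here, and how reads that fit both were counted is not given in the sources used here.

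Adding the TPM of each pseudogene to its gene, weighted by the length of the pseudogene over that of the gene, changed levels and their order, but not the counts of genes called. mt-Atp6 then had a mean of 9229 TPM over the 6 libraries and stood highest, followed by mt-Co1 with 6911, mt-Co2 with 6565 and mt-Co3 with 4086. mt-Atp8 lies inside the copy but has no annotated pseudogene, so nothing was added to its 2996 TPM and it was not placed in this order on equal terms. mt-Nd1, which has no part in the copy, went from rank 3 to rank 5. The count of the 37 genes that were higher stayed at 35 and of those past 2-fold at 13. With the TPM of the pseudogenes summed in without weights, the mitochondrial sequence came to 7.06, 6.10 and 5.81% of the TPM in K382Q and 3.88, 3.99 and 3.78% in K382R libraries. The 5 mRNAs wholly outside the copy had log2 fold changes of 0.61 to 0.86 and the 6 wholly inside it 0.48 to 0.77. Of the tRNAs, mt-Ts1, mt-Td, mt-Tk, mt-Tg and mt-Tr lie inside the copy, 2 of them past 2-fold, and 11 of the 17 outside it passed 2-fold.

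The pseudogenes Gm29216 and Gm28439 copy only part of a gene. Gm29216 holds the last 31.3% of mt-Co1, the stretch that ends at mt-Ts1, and had a TPM of 4046, 3603 and 3206 in K382Q and 1806, 2026 and 1608 in K382R libraries. Its log2 fold change was 1.00 ± 0.10 (SE, adjusted p = 0.000148 by limma), above the 0.68 of mt-Co1. TPM of mt-Co1 was 2.07, 2.04 and 2.08 times that of Gm29216 in K382Q and 2.55, 2.41 and 2.74 times in K382R libraries, and these did not overlap. Gm28439, which holds the first 63.6% of mt-Nd4, moved the other way against its gene, with ratios of 1.73, 1.72 and 1.66 in K382Q and 1.55, 1.59 and 1.58 in K382R libraries. The deposited values are 1 per gene, so how coverage runs along mt-Co1 was not analysed here.

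**Figure D4:**
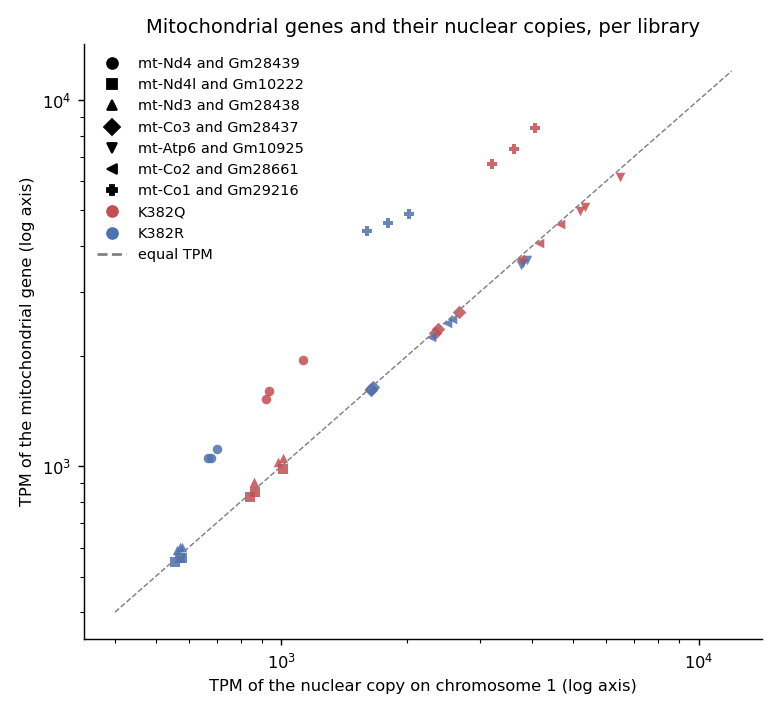
TPM of 7 mitochondrial genes against the TPM of their pseudogenes on chromosome 1, both on log axes, with 1 point per library, red for K382Q and blue for K382R, and a shape per pair. The 5 pairs that share over 95% of the gene lie on the dashed line of equal TPM, and mt-Co1 and mt-Nd4, which are copied in part, lie above it.

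Nuclear genes that transcribe, copy, cut and charge these RNAs were read from the same fit, as the other side of mitochondrial gene expression. Of the 92 genes tested in 7 lists, 9 were higher and 32 lower in K382Q in TPM, and 17 higher and 11 lower after median-ratio scaling, where 19.9% of all genes were higher and 20.3% lower. Mitochondrial transcription itself rests on the polymerase Polrmt with the factors Tfam and Tfb2m. Polrmt had a TPM of 23.9, 22.8 and 24.0 in K382Q and 27.3, 26.2 and 27.0 in K382R libraries. Tfam, which also packs mitochondrial DNA, had 34.0, 34.6 and 37.5 against 40.7, 38.9 and 38.3. Both were slightly lower, by -0.18 ± 0.05 (adjusted p = 0.0116 by limma) and -0.15 ± 0.05 (SE, adjusted p = 0.039) on the log2 scale. The lowest of 10 transcription genes was Tfb2m, -0.29 ± 0.06 (SE, adjusted p = 0.0037), and Mterf4 stood highest at 0.13 (adjusted p = 0.106 by limma). At an adjusted p under 0.05 this list held 3 lower and 0 higher genes.

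These small differences depend on the scaling, since the median of all genes was -0.14 in TPM and 0.00 after median-ratio scaling. Tfam was then at 0.00 and Polrmt at -0.03, neither of them called, and in the transcription list 2 genes were higher and 0 lower. Of the mitochondrial genes, 35 of 37 were higher under either scaling.

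Of 13 genes for replication of mitochondrial DNA, 1 was higher and 6 lower, from Top1mt, a topoisomerase, at -0.35 (adjusted p = 0.000454 by limma) to Primpol, a primase, at 0.21 (adjusted p = 0.0382). After median-ratio scaling 2 were higher and 1 lower. The 5 genes that cut tRNAs out and add CCA were lower in 3 cases and higher in 1. Prorp, the nuclease of RNase P, had the lowest value with -0.39 ± 0.10 (SE, adjusted p = 0.0139 by limma), and Elac2, which cuts the other end, was at -0.24. Trnt1, which adds CCA, was at -0.27, and Hsd17b10, another RNase P subunit that is also a dehydrogenase, rose by 0.24 ± 0.04 (SE, adjusted p = 0.00135 by limma). After median-ratio scaling Hsd17b10 was still higher and 0 of the 5 were lower.

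Of 17 genes for RNA stability and decay, 2 were higher and 6 lower, and after median-ratio scaling 4 and 3. Rexo2, an exonuclease that clears short RNAs, had the lowest value, -0.41 ± 0.04 (SE, adjusted p = 0.000112 by limma), and Fastk stood highest at 0.21 (adjusted p = 0.00682). Of 20 genes that modify tRNA and rRNA, 0 were higher and 9 lower (1 and 6 after median-ratio scaling), with Pus1, a pseudouridine synthase, lowest. Its TPM was 52.2, 49.5 and 49.0 in K382Q and 75.6, 79.4 and 79.0 in K382R libraries, and its log2 fold change of -0.63 ± 0.04 (SE, adjusted p = 1.34e-05 by limma) was still -0.48 after median-ratio scaling. The highest of these was Cdk5rap1 at 0.09 (adjusted p = 0.53 by limma). Of 20 genes for charging tRNAs, 4 were higher and 4 lower, from Sars2 at -0.36 (adjusted p = 0.029 by limma) to Fars2 at 0.34 (adjusted p = 0.00526). After median-ratio scaling 5 of these were higher and 0 lower. The share of all tested genes was 11.1% higher and 36.9% lower, beside which the counts in TPM are to be read, and those after median-ratio scaling beside the 19.9% and 20.3% given above.

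Of 7 regulators of mitochondrial biogenesis 1 passed both thresholds. Ppargc1a, which encodes the coactivator PGC-1α, had a TPM of 5.0, 4.57 and 4.28 in K382Q and 1.93, 1.88 and 1.53 in K382R libraries, a log2 fold change of 1.17 ± 0.12 (SE, adjusted p = 0.000163 by limma). The groups did not overlap. Pprc1, a related coactivator, fell by 0.47 on the log2 scale (adjusted p = 4.31e-05 by limma), with 28.7, 28.6 and 29.7 against 40.4, 40.2 and 40.9. Ppargc1b, Nrf1, Gabpa, Gabpb1 and Esrra did not pass, with log2 fold changes of -0.11 to 0.07. Nrf1 was called higher after median-ratio scaling, at 0.22 (adjusted p = 0.00581 by limma), and also in FPKM and with quantile normalization.

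**Figure D5:**
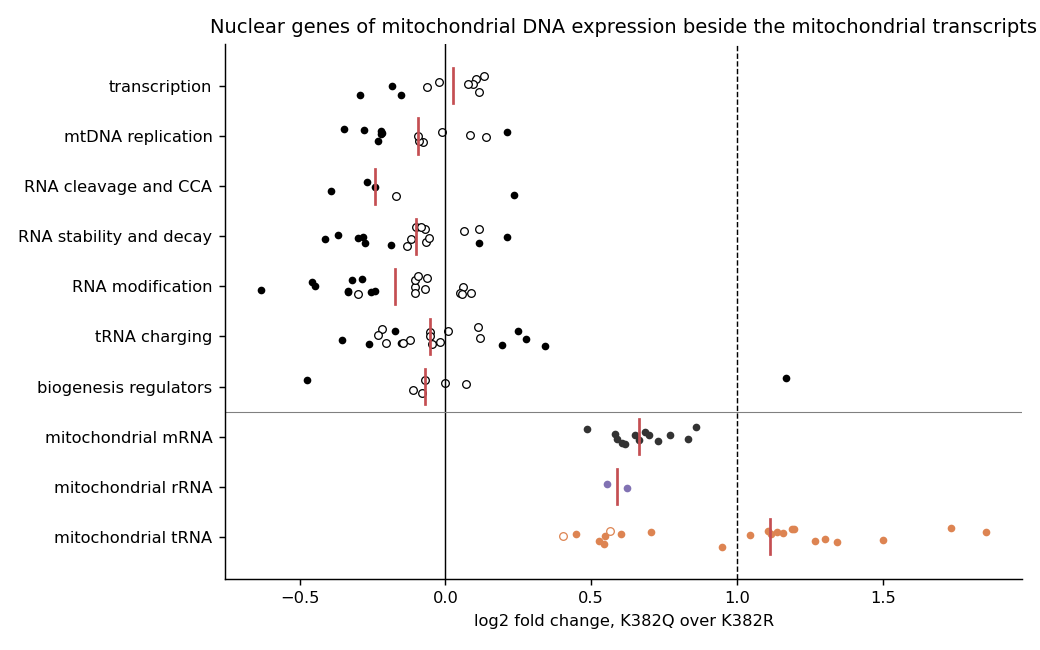
Log2 fold change, K382Q over K382R, of nuclear genes by their role in mitochondrial gene expression (upper 7 rows) and of the mitochondrial mRNAs, rRNAs and tRNAs (lower 3 rows). Filled points have an adjusted p under 0.05, red bars are medians, and the dashed line marks 2-fold. All nuclear genes shown but Ppargc1a lie between -0.63 and 0.34, and the mitochondrial genes between 0.40 and 1.85.

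Other short or nonpolyadenylated RNAs were looked at beside the tRNAs, which are 59 to 75 bases long. Among 298 tested nuclear genes shorter than 200 bases, 22 (7.38%) were higher and 24 lower, with a median log2 fold change of -0.03. Of 17 small nonpolyadenylated RNAs 9 could be tested, and 0 were called in either direction. Only Rn7sk, Rn7s1 and Rn7s2 among them lay well above the filter of 0.5 TPM. The other tested ones had group means of at most 2.16 TPM, which limits what could be called. Rn7sk, which holds back transcription elongation, had a mean TPM of 63.4 in K382Q and 67.3 in K382R, a log2 fold change of -0.08 (adjusted p = 0.212 by limma). Of 20 replication histone mRNAs, which end without a poly(A) tail, 0 were higher and 13 lower, with a median of -0.54. Of all genes tested 36.9% were lower. None of these 3 sets had a share of higher genes above the 11.1% of all genes tested.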

How the data were processed

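RNA from 3 K382Q and 3 K382R cultures was sequenced by the authors as paired reads, trimmed (TrimGalore 0.6.7), aligned to GRCm39 with HISAT2 2.2.1 and quantified with StringTie 2.2.1. The release of the gene annotation is not given in the sources used here. The authors deposited 1 table per library with 3 units. The deposited coverage is the mean read depth per base as a signal, without scaling. The deposited FPKM is coverage scaled to the aligned length of the library. TPM, as deposited, sums to a fixed total per library, so it measures shares of the RNA. Read counts were not analysed here, and precision is that of 3 replicates.

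Values of repeated gene IDs were summed. All 37 coordinates were those of GENCODE mouse release 39, which also gave gene types, and the genes have 1 transcript each. Mutants were compared with limma 3.58.1 (R 4.3.3) by a two-sided moderated test on log2(TPM + 0.5), the variance trended on intensity. The 15426 genes tested reached a TPM of 0.5 in 3 libraries or more, with Benjamini-Hochberg adjustment over all of them. Calls used an adjusted p under 0.05, alone or with a fold change over 2. The scale understates changes of low genes. The procedure was tested on simulated data. Nuclear copies of chrM were found with BLAST 2.17.0. Sequences were read from GRCm39. Tables were handled with Python 3.11.15, pandas 2.3.3 and numpy 2.4.6 and drawn with matplotlib 3.10.9.

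The members, gene lists and rules were chosen with earlier results of these data known. All 37 genes are accounted for, with values per library for mRNAs, rRNAs, minus strand tRNAs and the 3 tRNAs each that were highest, rose most and rose least. Nuclear genes named are Ppargc1a, Tfam, Polrmt, those past both thresholds and the extremes of each list. Gm28901, listed among the nuclear copies, is annotated as a lncRNA outside the chromosome 1 copy and was not used there (log2 fold change -0.89, adjusted p = 0.138 by limma). A few others were picked after their values were seen. Alternatives were other pseudocounts, filters, units, scalings, variance models, a replicate block, leaving out each library, and a fold change over 1.5. Adding nuclear copies and scaling to the mitochondrial mRNAs were chosen after seeing the data.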

Additional observations from a re-analysis of the deposited data

How the results depend on the processing

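The direction of all 37 genes held under every alternative but scaling to the mitochondrial mRNAs, where log2 fold changes ran from -0.21 to 1.21. Without scaling for depth, as plain coverage, 5 of 13 mRNAs, 0 of 2 rRNAs and 15 of 22 tRNAs were higher at an adjusted p under 0.05. In that unit 11 of the 37 genes, all tRNAs, passed 2-fold. Median-ratio scaling, which moved the median of all genes from -0.14 to 0.00 and their calls from 1717 higher and 5698 lower to 3076 and 3138, took 1 mRNA, mt-Nd2, past 2-fold. With a fold change over 1.5, 11 mRNAs and 1 rRNA passed. With each library left out in turn, 19 to 20 tRNAs were higher, 11 to 14 passed 2-fold and 12 to 14 were higher relative to the mRNAs, with mt-Tg lower without K382Q replicate 3. Without a filter on low values mt-Tv, mt-Tr and mt-Tl2 were not called, without an intensity trend mt-Tv was not, and with quantile normalization mt-Atp8 was not (adjusted p = 0.0617 by limma). The cause of these changes was not tested.

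With the replicate number as a block, 13 mRNAs, 2 rRNAs and 20 tRNAs were higher and 13 tRNAs passed 2-fold, and 13 tRNAs were higher relative to the mRNAs, as without it. Libraries with the same number correlated at -0.018, 0.051 and 0.022 in their deviations from the group means, so the number is not shown to pair them, and the block changed no call of the 37 genes. Among the 92 nuclear genes tested it gave 8 higher and 30 lower, against 9 and 32 without it, and Tfam was not called (adjusted p = 0.0754 by limma). With it 15 replication histones were lower in place of 13, and of the small nonpolyadenylated RNAs Rpph1 was called lower (-0.90, adjusted p = 0.0209 by limma).

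Coverage of mt-Tf, mt-Td and mt-Tv was at most 13.8 in every library, which limits their calls. TPM gives shares, so each rise is relative to the rest of the RNA. Strand and the nuclear copy were not resolved.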

Other observations

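Of the 13 replication histone mRNAs that were lower in K382Q, H1f1, a linker histone, had a TPM of 9.57, 8.08 and 10.5 in K382Q and 20.4, 18.9 and 19.2 in K382R libraries, a log2 fold change of -1.02 ± 0.09 (SE, adjusted p = 8.66e-05 by limma), and H3c2, a core histone, had 2.67, 2.88 and 1.95 against 6.94, 4.6 and 6.23 (-1.09 ± 0.18, SE, adjusted p = 0.00159). The extremes of the list were not called. They were H2ac18 at -2.12 ± 0.76 (SE, adjusted p = 0.0502 by limma), with 2.11, 25.5 and 3.2 against 21.0, 31.1 and 30.1, where 1 K382Q library lay among the K382R libraries, and H2ac10 at 0.55 (adjusted p = 0.08 by limma). After median-ratio scaling 10 of the 20 were lower and 1 higher, beside 20.3% and 19.9% of all genes tested (36.9% and 11.1% in TPM). Among the small nonpolyadenylated RNAs Rpph1, the RNA of nuclear RNase P, was lowest at -0.90 (adjusted p = 0.256 by limma) and Terc, the telomerase RNA, highest at 0.52 (adjusted p = 0.241). Thy1, a surface marker of preadipocytes, had a log2 fold change of -1.25 ± 0.10 (SE, adjusted p = 5.36e-05 by limma). Ly6a, a surface marker of preadipocytes, had 498, 449.8 and 452 against 752, 764 and 786, which is -0.72 ± 0.04 on the log2 scale (SE, adjusted p = 1.14e-05 by limma).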
